A study of Mus musculus with 16 samples.

Results

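Imprinted genes are expressed mainly from the chromosome copy inherited from 1 parent, because DNA methylation set in the egg or the sperm marks the parental copies differently. Many of them control growth of the embryo and of the placenta, with paternally expressed genes often promoting growth and maternally expressed genes often restraining it. The genes examined here were 10 members of this class, chosen by name: the paternally expressed *Peg10*, *Igf2*, *Peg3* and *Plagl1*, the maternally expressed *Cdkn1c*, *Phlda2*, *Ascl2* and *Grb10*, and the maternally expressed noncoding RNAs *H19* and *Meg3*. The choice was made with earlier results of these data known. Of these 10 genes, 8 were named by at least 1 array probe and 7 were detected often enough to be tested among 9303 genes. *H19* and *Meg3* were named by no probe and were not analysed here. The arrays measure total transcript and cannot tell the parental copies apart.

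The cells were *Sox2*-null embryonic stem cells (ESCs) of the 129/Ola background. All lines carried a tet transactivator, a constitutive DsRed transgene and a mouse *Sox2* transgene that doxycycline shuts off. Apart from TSS, the groups consisted of clones that also received human *SOX2* in a PiggyBac plasmid, were selected with 300 µg/ml hygromycin and were grown with 1 µg/ml doxycycline: S98/102 (clones 1, 2 and 4), S113 (clones 4 and 5) and SWT, with wild-type *SOX2* (clones 4 and 5). The S98/102 mutant is impaired in pairing with OCT4 on certain DNA elements with adjoining binding sites, and S113 on elements with spaced sites. The labels call the S98/102 clones *Sox2* 95 mutants. TSS was 1 line grown without doxycycline, so that its mouse *Sox2* was on. Each of the 8 lines was hybridized to 2 arrays, which may be technical repeats, and the level of a line is the mean of its 2 arrays in normalized log2 intensity. Group values are means ± SD over lines.

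Over the 16 arrays, 48.6 to 52.5% of probes were detected, the detection floor lay between 4.60 and 4.74 log2 units, and the arrays of a line correlated at 0.994 to 0.998. The *Sox2* probe read 5.02 to 6.32 in S98/102, 7.67 to 8.04 in S113, 6.39 in TSS and 4.77 to 4.88 in SWT. Where this probe lies on the transcript is not given in the sources used here, so it does not check the labels. All 9 ESC markers listed were detected in every line, with a summed intensity of 18310 to 28086 in S98/102, 33974 to 34228 in S113, 35212 in TSS and 34976 to 36452 in SWT. S98/102 clone 2 stood apart, with r = 0.947 to clone 1 and 0.959 to clone 4 over the genes tested, whereas clones 1 and 4 had r = 0.991.

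A gene passed a comparison when its adjusted p, by limma with Benjamini-Hochberg adjustment over the 9303 genes, was under 0.05. Against SWT, 2 of the 7 genes passed in S98/102, both higher, where 23.1% of all genes tested passed and 11% passed as higher. The 7 had a median log2 difference of 1.36, beside -0.01 for all genes. By line means alone, 4 of the 7 lay without overlap above SWT in S98/102, where 60% of all genes did not overlap and 28.5% lay above. Among these, *Peg3* in S98/102 clone 1 (4.84) and SWT clone 4 (4.69) differed by less than its largest gap between arrays of a line (0.42). In S113 none of the 7 passed against SWT, nor did any of the 9303 genes (0%). At an unadjusted limma p under 0.05, 863 genes (9.28%) and 3 of the 7 (*Peg10*, *Igf2* and *Cdkn1c*) differed between S113 and SWT, and the 7 had a median of 0.84, beside 0.01 for all genes. Of the 7, 6 lay without overlap above SWT in S113, where 51.4% of all genes did not overlap and 26.3% lay above. For *Phlda2*, *Peg3* and *Ascl2* this separation was smaller than the largest gap between arrays of a line. The lower S113 clone exceeded SWT clone 4 by 0.011 for *Phlda2* (array gap 0.31), 0.021 for *Peg3* (0.42) and 0.038 for *Ascl2* (0.49). TSS gave 0 genes (0%) against SWT after adjustment, and *Peg10* and *Grb10* among the 914 (9.82%) at an unadjusted p under 0.05. TSS, as a single line, was assumed to vary like the other lines. In every group, fewer cells of a type expressing a gene and less RNA per cell cannot be told apart.

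**Figure D1:**
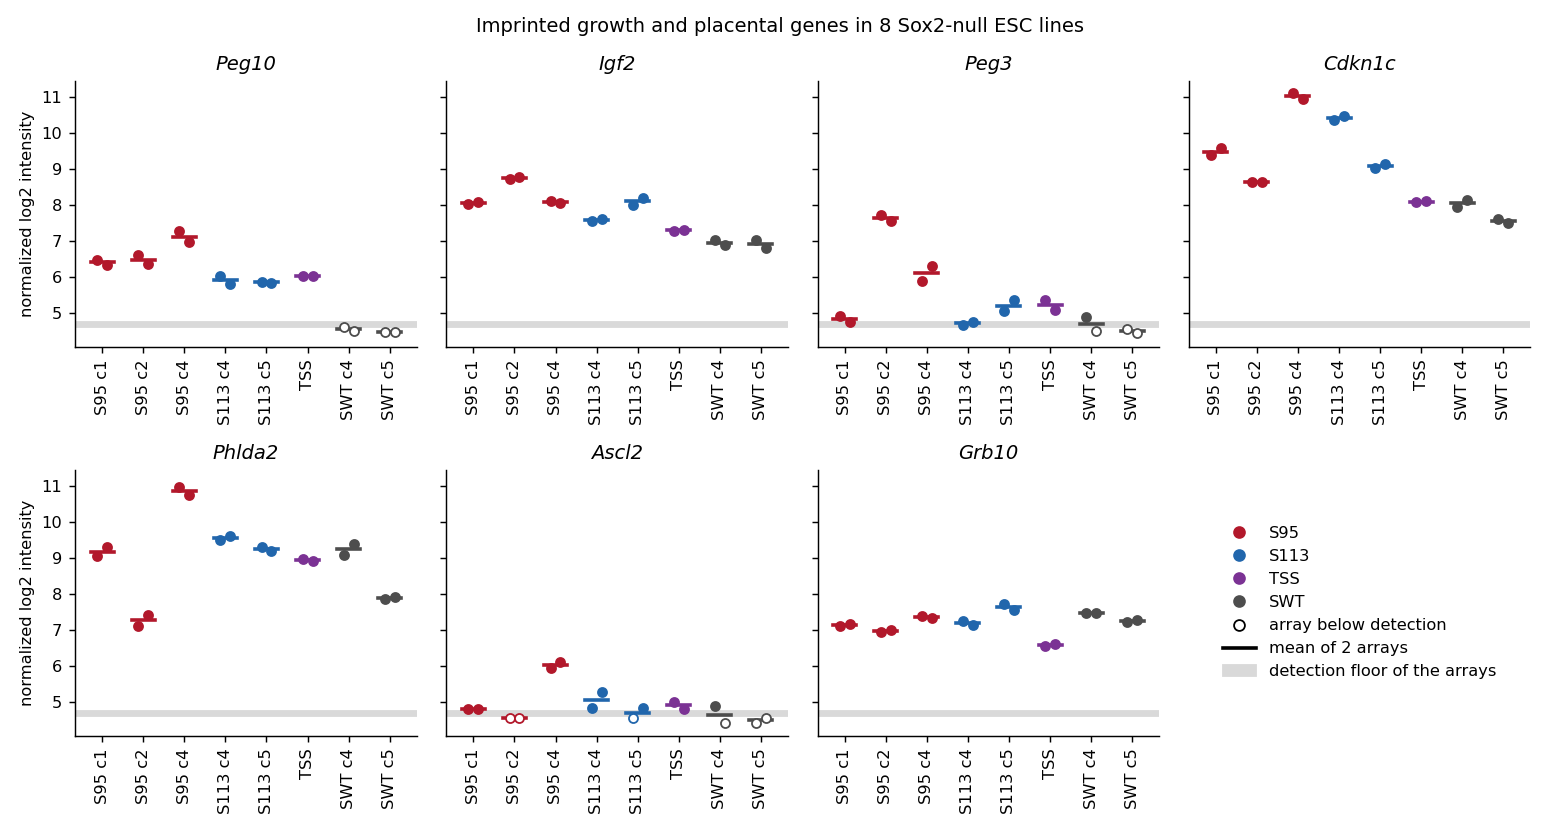
Normalized log2 intensity (y axis) of the 7 tested imprinted genes on each array, by line (x axis, c for clone, S95 for S98/102 as in the labels). Points are arrays, open where the probe was not detected, bars are line means, and the grey band is the range of detection floors from 4.60 to 4.74. *Peg10* was undetected on all 4 SWT arrays and detected on the other 12, whereas *Phlda2* ranged from 7.27 to 10.85 within the S98/102 clones.

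*Peg10*, a retrotransposon-derived gene on chromosome 6 required for placental development in the mouse, separated SWT from every other line. It averaged 6.41, 6.48 and 7.12 in S98/102 clones 1, 2 and 4, 5.92 and 5.85 in S113 clones 4 and 5, 6.03 in TSS, and 4.56 and 4.47 in SWT clones 4 and 5. The probe was below detection on all 4 SWT arrays and detected on all 6 S98/102, all 4 S113 and both TSS arrays, and no S98/102, S113 or TSS line overlapped SWT. Because SWT gave only a bound, the fold is that of the group mean over the higher of the detection floor and the SWT signal, with normalized values averaged over the arrays. *Peg10* was at least 3.85-fold higher in S98/102 (6.67 ± 0.39, n = 3) than in SWT (4.52 ± 0.07, n = 2), with a log2 difference of 2.15 (SE 0.23, limma adjusted p = 0.0033). It was at least 2.23-fold higher in S113 (5.88 ± 0.04, n = 2) than in SWT, which did not pass (log2 difference 1.37, SE 0.25, limma adjusted p = 0.17). This last call depended on the lines fitted: the limma adjusted p was 0.047 without S98/102 clone 2 and 0.049 with only S113 and SWT in the fit. TSS was at least 2.47-fold higher than SWT, also short of the threshold (limma adjusted p = 0.32).

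Among the lines with *Peg10*, S98/102 lay above S113 without overlap, the 1 gene of the 7 to do so, where 53.9% of all genes did not overlap and 25.1% lay above. The groups differed by 0.79 in log2 (SE 0.23), which did not pass (limma adjusted p = 0.077). Without S98/102 clone 2 the difference was 0.88 and passed (limma adjusted p = 0.040). In the order of the 8 lines, the gaps between TSS and S113 clone 4 and between the S113 clones were smaller than the largest gap of 0.31 between arrays of a line, so these 3 lines were not ordered. S98/102 clone 4 exceeded clone 1 by 0.71 (array fit, limma adjusted p = 0.00094).

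*Pon2*, a paraoxonase gene near *Peg10* on chromosome 6, was also higher in S98/102 (8.20, 8.60 and 8.63) than in SWT (6.83 and 7.34), by 1.39 (SE 0.22, limma adjusted p = 0.0096). As for *Peg10*, both SWT clones lay below every other line, with *Pon2* at 8.12 and 8.39 in S113 and 7.86 in TSS. S113 differed from SWT by 1.17 (limma adjusted p = 0.20) and S98/102 from S113 by 0.22. *Ppp1r9a*, between *Peg10* and *Pon2* in the order of the listed genes, was at 7.39, 5.82 and 7.06 in S98/102 and at 8.16 and 7.64 in SWT (difference -1.14, limma adjusted p = 0.11), and *Pon3* differed by 0.04. The 2 genes whose levels over the 8 lines were most like those of *Peg10* were *Rhob* (Pearson r = 0.983) and *Klhl22* (r = 0.980), both lowest in SWT clone 5.

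*Igf2*, the fetal growth factor insulin-like growth factor 2, was detected on all 16 arrays. It averaged 8.06, 8.75 and 8.08 in S98/102 clones 1, 2 and 4, 7.59 and 8.11 in S113 clones 4 and 5, 7.30 in TSS, and 6.96 and 6.91 in SWT clones 4 and 5. SWT was again the lowest group, the S98/102 and S113 lines all lay above it, and S113 clone 5 fell among the S98/102 clones. *Igf2* was higher in S98/102 (8.30 ± 0.39, n = 3) than in SWT (6.94 ± 0.03, n = 2) by 1.36 (SE 0.26, limma adjusted p = 0.016). With 1 SWT clone left out the difference was 1.38 without clone 4 and 1.34 without clone 5, and it no longer passed (limma adjusted p = 0.10 and 0.11). In S113 (7.85 ± 0.36, n = 2) the difference from SWT was 0.91 (SE 0.29, limma adjusted p = 0.39), and between S98/102 and S113 it was 0.45 (SE 0.26, limma adjusted p = 0.27). TSS differed from SWT by 0.37 (SE 0.35). The closest genes over the lines were *Galnt10* (r = 0.986) and *Ehmt2* (r = 0.985).

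*Igf2r*, whose product takes IGF2 to the lysosome and which is maternally expressed in the mouse, went the other way. It was at 7.46, 6.72 and 7.33 in the S98/102 clones, against 8.48 and 8.34 in SWT, a difference of -1.24 (SE 0.24, limma adjusted p = 0.017). Of 14 IGF pathway genes tested, 2 were higher in S98/102 (*Igf2* and *Igf2bp1*, an RNA-binding protein of the *Igf2* message, by 0.48, limma adjusted p = 0.042), 1 was lower (*Igf2r*) and 11 did not pass, with a median difference of 0.54. Over all genes tested 23.1% passed, 11% as higher and 12.1% as lower, and the median was -0.01. *Irs2*, an adaptor of the insulin and IGF1 receptors, had a difference of 0.92 (limma adjusted p = 0.057) and the receptor gene *Igf1r* one of 0.09. None of the 14 passed in S113 against SWT (median 0.16), where 0% of all genes passed and their median was 0.01.

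*Peg3*, a paternally expressed zinc finger gene on chromosome 7, was carried mainly by 2 S98/102 clones. It averaged 7.64 in clone 2 and 6.11 in clone 4, against 4.84 in clone 1, while S113 was at 4.71 and 5.21, TSS at 5.22 and SWT at 4.69 and 4.50. SWT was detected on 1 of 4 arrays, and in the order of lines the 6 lowest, which included S98/102 clone 1, were each within 0.42, the largest array gap, of the next. The group difference between S98/102 and SWT was 1.60 (SE 0.72) and did not pass (limma adjusted p = 0.14), although no S98/102 clone overlapped SWT. Without S98/102 clone 1 it was 2.28 and passed (limma adjusted p = 0.027). The S98/102 clones differed by more than their arrays did: clone 2 exceeded clone 1 by 2.80 (SE 0.16, limma adjusted p = 1.0e-09) and clone 4 by 1.53, and clone 4 exceeded clone 1 by 1.27.

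The neighbour of *Peg3*, *Usp29*, is paternally expressed as well and starts next to it on the opposite strand. *Usp29* read 4.68, 4.28 and 4.59 in S98/102 clones 1, 2 and 4, against 5.25 and 5.50 in SWT, and was lower, with a difference of -0.86 (SE 0.17, limma adjusted p = 0.018). S113 was as low, at 4.54 and 4.58 (-0.81 against SWT, limma adjusted p = 0.25). Its probe was near the detection floor in S98/102, where it was detected on 2 of 6 arrays, against 4 of 4 in SWT, so that this difference rests partly on readings below detection. *Thbd*, which encodes thrombomodulin, followed *Peg3* over the 8 lines at r = 0.996, with 8.79 in S98/102 clone 2, 6.21 in clone 4 and 4.26 to 5.16 in the other 6 lines. *Serinc1* followed at r = 0.990. A correlation over 8 lines with 1 extreme line rests largely on that line.

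**Figure D2:**
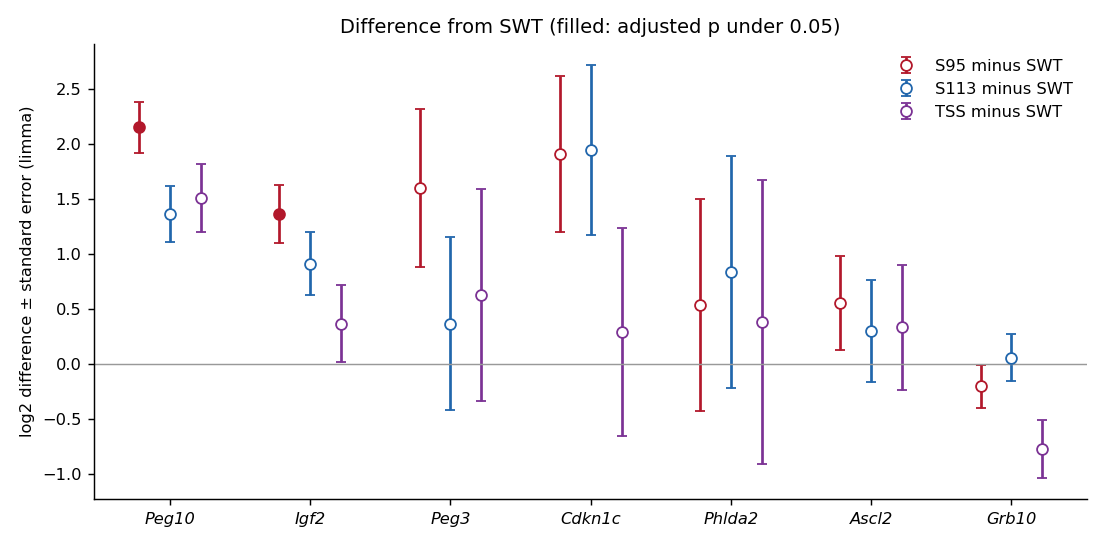
Log2 difference from SWT (y axis) of each tested gene (x axis) for S98/102 (S95 in the labels), S113 and TSS, with the limma standard error. Filled points, *Peg10* at 2.15 and *Igf2* at 1.36 in S98/102, had an adjusted p under 0.05.

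*Cdkn1c* encodes p57, an inhibitor of cyclin-dependent kinases that restrains proliferation and is maternally expressed. It was detected on every array and averaged 9.48, 8.64 and 11.03 in S98/102 clones 1, 2 and 4, 10.42 and 9.09 in S113 clones 4 and 5, 8.10 in TSS, and 8.05 and 7.56 in SWT clones 4 and 5. All 5 mutant clones lay above both SWT clones, and TSS lay at the level of SWT clone 4. The differences from SWT were 1.91 (SE 0.71, limma adjusted p = 0.091) for S98/102 (9.72 ± 1.21, n = 3) against SWT (7.81 ± 0.35, n = 2) and 1.95 (SE 0.77, limma adjusted p = 0.51) for S113 (9.76 ± 0.94, n = 2) against SWT. Without S98/102 clone 2 the S98/102 difference was 2.45 and passed (limma adjusted p = 0.020). S98/102 and S113 differed by -0.04, less than the spread between clones. The order of the 8 lines was resolved best for *Cdkn1c*, with 6 of 7 neighbouring lines further apart than the largest array gap of 0.19.

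The cyclins and kinases that p57 acts on, with the related inhibitors and without *Cdkn1c* itself, gave 1 call among 11 genes tested in S98/102 against SWT, where 23.1% of all genes passed. Cyclin D1 (*Ccnd1*) was lower in S98/102, at 7.26, 8.93 and 7.78, than in SWT, at 10.95 and 10.75, a difference of -2.86 (SE 0.47, limma adjusted p = 0.010). It was also lower than in S113, at 10.66 and 10.10 (difference -2.39, limma adjusted p = 0.032). *Ccnd2* read 7.25, 9.60 and 7.42 in S98/102 and 6.13 and 6.65 in SWT (1.70, limma adjusted p = 0.14). The 11 genes had a median of -0.14 in S98/102 and -0.04 in S113 against SWT, beside -0.01 and 0.01 over all genes, and none passed in S113.

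*Phlda2*, a maternally expressed pleckstrin homology gene that limits placental growth in the mouse, differed more between clones than between groups. It averaged 9.17, 7.27 and 10.85 in S98/102 clones 1, 2 and 4, 9.55 and 9.24 in S113 clones 4 and 5, 8.94 in TSS, and 9.23 and 7.89 in SWT clones 4 and 5. Both the highest and the lowest of the 8 lines were S98/102 clones. Its S98/102 and SWT means (9.10 ± 1.79, n = 3, and 8.56 ± 0.95, n = 2) differed by 0.54 (SE 0.96, limma adjusted p = 0.71), and the sign turned without S98/102 clone 4 (-0.34) or SWT clone 5 (-0.14). S113 lay 0.84 above SWT (SE 1.05, limma adjusted p = 0.88). Within SWT, clone 5 was lower than clone 4 (difference -1.34, array fit, limma adjusted p = 5.1e-06).

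*Ascl2*, a maternally expressed transcription factor needed for the spongiotrophoblast of the mouse placenta, was near the detection floor in most lines. It averaged 6.03 in S98/102 clone 4, 4.80 in clone 1 and 4.54 in clone 2, 5.05 and 4.68 in S113, 4.90 in TSS, and 4.64 and 4.49 in SWT. Clone 4 alone stood clear of the other 7 lines, which were each within the largest array gap of 0.49 of the next. The probe was detected on 10 of 16 arrays, on neither array of S98/102 clone 2 and on 1 of 4 SWT arrays. The group differences from SWT were 0.55 (SE 0.42, limma adjusted p = 0.36) in S98/102 and 0.30 (SE 0.47, limma adjusted p = 0.91) in S113.

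*Ascl2* and *Phlda2* lie in the same imprinted domain of chromosome 7, and their levels moved together between clones, as given next. The 250 bases before the annotated start of each gene are shown, and those of *Peg3* as the gene with the largest clone difference outside that domain, 5′ to 3′ on the gene's own strand (minus for all 3), with CG pairs, the sites of DNA methylation, in capitals. The sequences are from RefSeq on GRCm38.p6, in which 7 of the 10 genes had at least 1 entry.
Phlda2, chr7:143502525-143502774: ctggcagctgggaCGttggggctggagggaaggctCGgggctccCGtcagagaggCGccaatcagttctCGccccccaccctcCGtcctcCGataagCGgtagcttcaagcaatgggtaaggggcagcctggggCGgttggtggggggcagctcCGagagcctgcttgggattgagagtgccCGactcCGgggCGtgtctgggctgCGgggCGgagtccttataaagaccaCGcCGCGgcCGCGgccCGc
Ascl2, chr7:142969265-142969514: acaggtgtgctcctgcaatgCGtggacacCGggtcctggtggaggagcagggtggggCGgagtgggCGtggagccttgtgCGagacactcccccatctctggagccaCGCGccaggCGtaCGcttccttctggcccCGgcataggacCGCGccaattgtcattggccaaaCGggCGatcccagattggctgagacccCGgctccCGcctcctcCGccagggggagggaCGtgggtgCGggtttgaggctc
Peg3, chr7:6730420-6730669: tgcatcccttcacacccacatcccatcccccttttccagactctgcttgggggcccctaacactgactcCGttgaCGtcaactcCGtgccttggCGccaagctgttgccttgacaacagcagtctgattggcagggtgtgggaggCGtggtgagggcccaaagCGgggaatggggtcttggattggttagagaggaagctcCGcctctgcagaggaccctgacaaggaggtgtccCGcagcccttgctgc
The *Phlda2* window held 21 CG pairs, more than 83.7% of 32851 such windows, and the *Ascl2* window 19, more than 80.3%. The *Peg3* window held 8, close to the median of 6. Neither CATTGT, a core SOX2 site, nor ATGCAAAT, an octamer site, occurred on either strand of these 3 windows. CATTGT was found in 10.7% and ATGCAAAT in 1.6% of all windows, and among the 12 windows of the 7 genes CATTGT occurred once, in 1 of 4 *Igf2* windows. The absence of these letters says nothing about other binding sites or other regions.

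The comparison of clones within a group was fitted over the 16 arrays, so its p-values measure only the spread between the 2 arrays of a line. Between S98/102 clones 2 and 1, 4 of the 7 genes differed, where 55.3% of all genes did (25.7% higher and 29.5% lower in clone 2). *Peg3* (2.80) and *Igf2* (0.69, limma adjusted p = 3.9e-05) were higher in clone 2, and *Phlda2* (-1.91, limma adjusted p = 8.6e-09) and *Cdkn1c* (-0.84, limma adjusted p = 5.9e-06) lower. All 7 differed between clones 2 and 4, where 51.6% of all genes did (23.5% higher and 28.1% lower in clone 2). *Phlda2* was lower in clone 2 than in clone 4 (difference -3.58, SE 0.13, limma adjusted p = 3.8e-11) and so was *Cdkn1c* (-2.39, SE 0.11, limma adjusted p = 1.1e-10), and *Ascl2*, undetected in clone 2, was at least 2.55-fold higher in clone 4. *Peg10* (-0.65) and *Grb10* (-0.39) were also lower in clone 2 than in clone 4, against *Peg3* (1.53) and *Igf2* (0.67), which were higher. Between clones 4 and 1, which had the most alike profiles, 5 of the 7 passed and all 5 were higher in clone 4, where 15.5% of all genes passed and 8.66% were higher. These were *Phlda2* (1.68), *Cdkn1c* (1.55), *Peg3* (1.27), *Ascl2* (1.23) and *Peg10* (0.71).

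The SD between the 3 S98/102 clones was 1.79 for *Phlda2*, 1.40 for *Peg3* and 1.21 for *Cdkn1c*, beside a median of 0.23 for all genes tested. Only 0.25%, 0.91% and 1.7% of genes had a larger one. For *Ascl2* the SD was 0.80 (6.4% of genes larger), for *Peg10* and *Igf2* 0.39 each (25.4% and 25.5% larger), and for *Grb10* 0.20 (58% larger). *Peg10* and *Igf2*, the 2 genes that passed against SWT, were thus among the less variable of the 7 within S98/102. The test against SWT uses this spread, so genes with a small one pass more readily and this is not a separate result.

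In S113, clone 5 was lower than clone 4 in *Cdkn1c* (difference -1.33, SE 0.11, limma adjusted p = 3.5e-07) and higher in *Igf2* by 0.51 (limma adjusted p = 0.0024), in *Grb10* by 0.44 (limma adjusted p = 0.0030) and in *Peg3* by 0.49 (limma adjusted p = 0.039), so that 4 of 7 passed, where 21.3% of all genes did. The *Peg3* call was lost without array 1 (limma adjusted p = 0.17) or array 2 (0.090) of clone 4 or array 2 of clone 5 (0.27), and also with the deposited log2 values (0.058), a background offset of 50 (0.084), a median shift of each array in place of quantile normalization (0.074) and no detection filter (0.078). In SWT, 2 of 7 differed, *Phlda2* (-1.34) and *Cdkn1c* (-0.49, limma adjusted p = 0.0048), both lower in clone 5 than in clone 4, where 15.1% of all genes differed and 8.08% were lower. The *Cdkn1c* call was lost without array 2 of SWT clone 4 (limma adjusted p = 0.052).

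**Figure D3:**
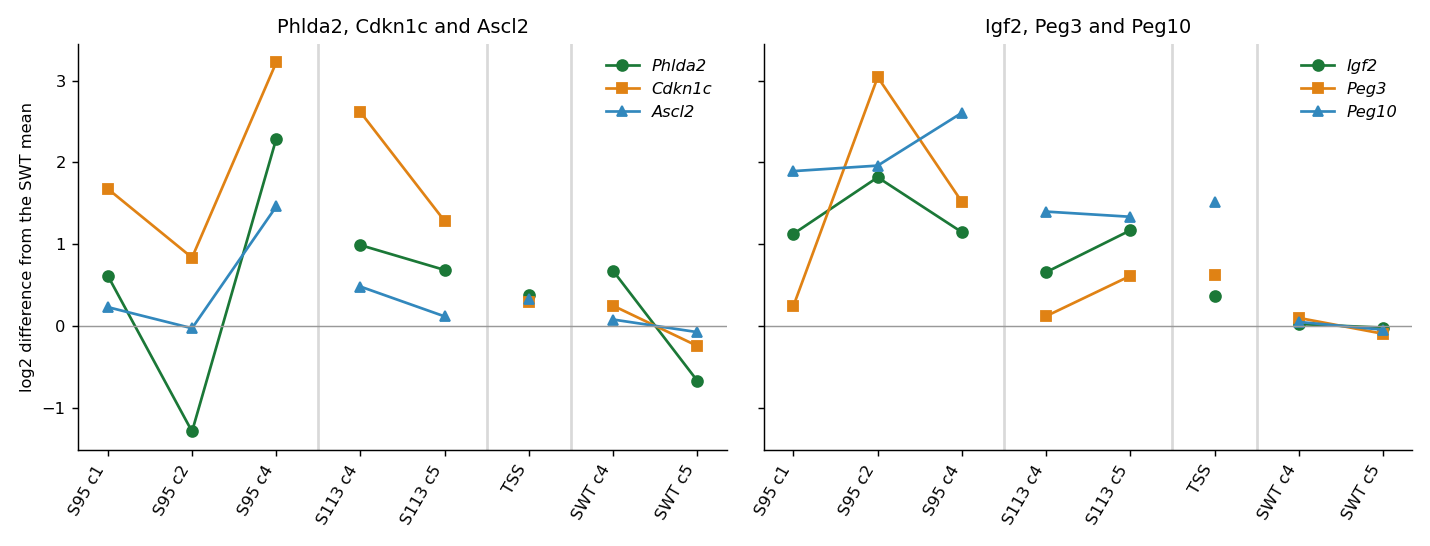
Log2 difference of each line from the SWT mean (y axis) for *Phlda2*, *Cdkn1c* and *Ascl2* (left) and for *Igf2*, *Peg3* and *Peg10* (right), by line (x axis, c for clone, S95 for S98/102), with lines joining the clones of a group. In S98/102, *Phlda2*, *Cdkn1c* and *Ascl2* were each lowest in clone 2, where *Ascl2* was undetected, and highest in clone 4. *Igf2* and *Peg3* were each highest in clone 2.

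The 3 maternally expressed chromosome 7 genes shared an order of clones. By line means, *Phlda2*, *Cdkn1c* and *Ascl2* were each lowest in clone 2 and highest in clone 4 of S98/102. *Ascl2* was undetected in clone 2, and its difference there from clone 1 (-0.26, array fit, limma adjusted p = 0.19) did not pass. Each of the 3 genes was lower in clone 5 than in clone 4 of S113 and of SWT, although for *Ascl2* in both groups and *Phlda2* in S113 the clones did not pass. The S98/102 order was not particular to them. *Grb10* and the imprinted genes *Mest* and *Slc38a4*, on other chromosomes, shared it by line means but did not follow in both S113 and SWT. *Dnmt1*, on chromosome 9, had the same order in S98/102, S113 and SWT, with SWT clones 4 and 5 close, at 10.11 and 10.08. The share of all genes with this order was not computed. Taken as deviations from the group mean over the 7 clones, *Cdkn1c* had r = 0.89 with *Phlda2* and r = 0.94 with *Ascl2*, and *Phlda2* had r = 0.89 with *Ascl2*. *Igf2*, the paternally expressed gene of the same chromosome region, had r = -0.79 with *Cdkn1c* and r = -0.71 with *Phlda2*, and r = 0.84 with *Peg3*. *Peg10*, on another chromosome, had r = 0.96 with *Ascl2*, r = 0.83 with *Cdkn1c*, r = 0.79 with *Phlda2* and r = -0.37 with *Igf2*. *Grb10*, also on another chromosome, had r = 0.65 with *Phlda2*, r = 0.46 with *Ascl2* and r = 0.27 with *Cdkn1c*. High correlations were thus not particular to the chromosome 7 genes. These values are descriptions over 7 clones that share group means, and S98/102 clones 2 and 4 carried most of the spread.

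Of other genes along the same stretch of chromosome 7, *Cd81* read 11.70, 12.13 and 12.14 in S98/102, 12.26 and 12.18 in S113, 12.71 in TSS and 12.63 and 12.53 in SWT, and *Nap1l4*, next to *Phlda2* in the order of listed genes, lay between 11.63 and 12.14 in all lines. *Slc22a18*, between *Cdkn1c* and *Phlda2*, read 4.39, 4.25 and 4.68 in S98/102, 4.78 and 4.32 in S113, 4.60 in TSS, and 4.26 and 4.21 in SWT. It was detected on 2 of 6 arrays of S98/102, 2 of 4 of S113, 1 of 2 of TSS and 0 of 4 of SWT, so its readings give no level to compare. None of the 3 passed between S98/102 and SWT.

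Among all genes, those most like *Cdkn1c* over the 8 lines were *Dync1i2* (r = 0.963) and *Dkk4* (r = 0.959), those most like *Phlda2* were *D6Wsu163e* (r = 0.949) and *Hcn3* (r = 0.948), and those most like *Ascl2* were *Dlx3* (r = 0.925), a homeobox gene of placenta and skin, and *Rab35* (r = 0.922). *Dlx3* read 6.64 in S98/102 clone 4 and 4.51 to 5.50 in the other lines.

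Markers of extraembryonic lineages also differed between these groups and clones. The 12 extraembryonic endoderm markers were all detected in the S98/102 clones, with a summed normalized intensity of 26890, 66178 and 31186 in clones 1, 2 and 4, against 10 to 12 detected and 4388 and 16244 in S113 clones 4 and 5, 9 detected and 3529 in TSS, and 7 to 10 detected and 1760 and 3812 in SWT. Clone 2 in S98/102 and clone 5 in S113, the highest in this sum within their groups, were also the highest in *Igf2* and *Peg3* and the lowest in *Cdkn1c*. In SWT, clone 5 had the higher sum and the lower *Cdkn1c*, but *Igf2* and *Peg3* differed there by -0.04 and -0.19 and did not pass. Of these 12 markers, 10 were higher and 0 lower in S98/102 than in SWT, with a median difference of 3.53, where 11% of all genes were higher. Of 10 trophectoderm markers, 7 were detected in S98/102 (summed intensity 5235, 9418 and 8789 in clones 1, 2 and 4), 6 in S113 (2552 and 3449), 7 in TSS (4595) and 5 to 6 in SWT (2448 and 3174). Of the 7 trophectoderm markers tested, 5 were higher and 0 lower in S98/102 than in SWT, with a median difference of 1.42. Over all genes tested, 11% were higher and the median was -0.01. *Elf5*, *Hand1* and *Tpbpa*, which mark trophoblast and its derivatives, were detected on none of the 16 arrays, and *Cdx2* was not detected in SWT. Fibroblast markers, for the feeder cells that ESC cultures can hold, gave sums of 240 to 280 in S98/102, 229 to 254 in S113, 237 in TSS and 236 to 279 in SWT, with *Postn*, *Twist2* and *Fap* not detected in any line. Of the 9 with a probe, 3 to 4 were detected in S98/102 and 3 in TSS, against 1 in S113 and 1 in SWT. None of the 3 tested passed between S98/102 and SWT, where 23.1% of all genes did. Each of the 3 had an unadjusted limma p under 0.05, but only 2 of the 3 were higher in S98/102, and the median difference was 0.51. Many genes met this unadjusted threshold: *Cdkn1c*, with an unadjusted limma p of 0.032 in this comparison, ranked only 3210 by p among all genes tested. The part of these cell types in the imprinted gene differences was not tested.

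*Grb10*, an adaptor that restrains insulin and IGF signalling and is maternally expressed in most mouse tissues, varied least. It averaged 7.13, 6.96 and 7.36 in S98/102 clones 1, 2 and 4, 7.19 and 7.63 in S113 clones 4 and 5, 6.58 in TSS, and 7.47 and 7.24 in SWT clones 4 and 5. The S98/102 and S113 clones overlapped SWT, and TSS alone lay below the other 7 lines, which were each within the largest array gap of 0.17 of the next. The difference was -0.21 (SE 0.20, limma adjusted p = 0.47) in S98/102 and 0.06 (SE 0.22, limma adjusted p = 0.97) in S113 against SWT. TSS was at -0.77 (SE 0.27), with a limma adjusted p of 0.46. *Mras* (r = 0.955) and *Ptp4a2* (r = 0.950) had the closest profiles.

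*Plagl1*, a paternally expressed zinc finger gene known to regulate other imprinted genes in the mouse, was represented by 3 probes. None was detected on any of the 16 arrays, and their readings lay between 4.16 and 4.44, below the detection floor. No difference in *Plagl1* was detectable in these lines.

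The 7 genes were set within a list of 71 imprinted genes, of which 57 had a probe and 41, the 7 included, were tested. In S98/102 against SWT, 6 of the 41 were higher, 5 were lower and 30 did not pass, with a median of 0.04, beside 23.1% of all genes passing, 11% higher and 12.1% lower, and a median of -0.01. *Sfmbt2*, a paternally expressed Polycomb-related gene of the mouse trophoblast, was higher by 2.53 (SE 0.21, limma adjusted p = 0.0019). It read 7.64, 7.73 and 7.36 in S98/102, against 5.15 and 4.95 in SWT. *Peg10*, *Pon2*, *Igf2*, *H13* (0.85, limma adjusted p = 0.023) and the ubiquitin ligase gene *Ube3a* (0.73, limma adjusted p = 0.026) were the other higher genes. The lower genes were *Atp10a* (-1.77, limma adjusted p = 0.0068), *Mkrn3* (-1.58, limma adjusted p = 0.0059), *Igf2r*, *Smoc1* (-1.20, limma adjusted p = 0.037) and *Usp29*. *Atp10a* read 4.85, 4.41 and 4.68 in S98/102, near the detection floor and detected on 3 of 6 arrays, against 6.09 and 6.74 in SWT, detected on 4 of 4. In S113 *Atp10a* was about as low, at 5.00 and 4.69 (-1.57 against SWT, limma adjusted p = 0.15). Of the other lower genes, S113 differed from SWT by -0.81 for *Usp29*, -0.40 for *Igf2r*, 0.09 for *Mkrn3* and 0.14 for *Smoc1*. The number passing fell to 4 without SWT clone 4 and 3 without SWT clone 5, and rose to 17 without S98/102 clone 2.

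**Figure D4:**
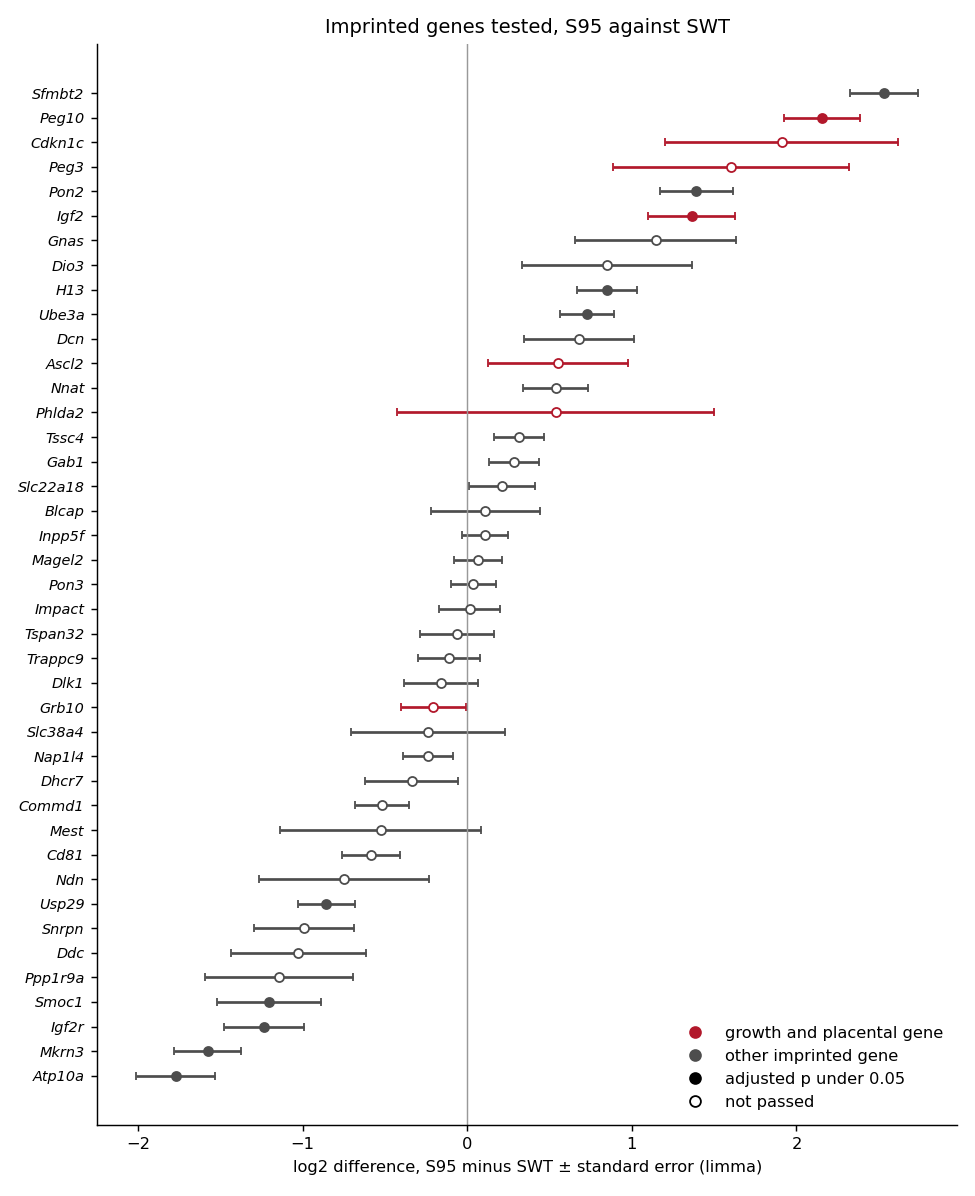
Log2 difference between S98/102 (S95 in the labels) and SWT (x axis, with the limma standard error) for each of the 41 imprinted genes tested (y axis, ordered by difference). Filled points had an adjusted p under 0.05, 6 higher and 5 lower, and the 7 growth and placental genes are in red, with *Cdkn1c* (1.91) and *Peg3* (1.60) unfilled beside *Peg10* and *Igf2*.

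Of the 41, none passed in S113 against SWT (median 0.06) or in TSS against SWT (median 0.17). Between S98/102 and S113, where 9.26% of all genes passed (4.17% higher and 5.08% lower), 4 of the 41 did: *Sfmbt2* (1.24, limma adjusted p = 0.022) and *H13* (0.79, limma adjusted p = 0.047) were higher in S98/102, and *Mkrn3* (-1.66, limma adjusted p = 0.013) and *Smoc1* (-1.34, limma adjusted p = 0.047) lower. None of the 7 growth and placental genes was among them. *Sfmbt2* stood at 6.08 and 6.60 in S113 and 5.83 in TSS, between the S98/102 and SWT lines.

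Of 8 tested genes that maintain imprints or DNA methylation, *Dnmt3b*, a de novo DNA methyltransferase, was the only one that passed between S98/102 and SWT. It read 12.95, 12.43 and 13.06 in S98/102, 12.58 and 12.81 in S113, 12.64 in TSS, and 11.44 and 11.45 in SWT, so that both SWT clones lay below every other line. The difference from SWT was 1.37 (SE 0.21, limma adjusted p = 0.0094) in S98/102 and 1.25 (limma adjusted p = 0.17) in S113. *Dnmt1*, the maintenance methyltransferase, differed by -0.49 (limma adjusted p = 0.069) and *Trim28*, a corepressor that protects imprints, by -0.40 (limma adjusted p = 0.10) in S98/102 against SWT. *Trim28* was lower in S98/102 than in S113 (difference -0.84, limma adjusted p = 0.027), at 11.67, 11.43 and 11.75 in S98/102, against 12.40 and 12.51 in S113. Over all genes 23.1% passed between S98/102 and SWT. The list had a median of -0.40 in S98/102 and 0.16 in S113 against SWT, beside -0.01 and 0.01 over all genes.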

How the data were processed

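Total RNA from 8 *Sox2*-null ESC lines was measured on Illumina mouse bead arrays, with 2 arrays a line (16 in all). The values the authors deposited are unnormalized probe intensities, summarized in BeadStudio 3.2. Beside each intensity stands a deposited detection p-value, which sets the probe against control probes. A second deposited table holds log2 values after background correction and quantile normalization by the authors, whose processing notes name RMA and lumi. Groups were taken from the labels, and the clones labelled *Sox2* 95 were taken as S98/102 from the study's description.

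For the values given here, neqc (limma 3.58.1, R 4.3.3) estimated the background with the help of the detection p-values, added an offset of 16, quantile normalized and took log2. Of 25697 probes, 23978 carried 1 gene name and 23962 could be tied to RefSeq. A probe was kept where its detection p was under 0.05 on both arrays in 2 or more lines (12673 with a gene), and each gene was represented by its brightest kept probe, giving 9303 genes. The offset and the floor compress differences of dim probes. Line means entered 1 limma fit over all 8 lines (lmFit and eBayes, 4 residual degrees of freedom), and clones were compared in a fit over the 16 arrays (8 residual degrees of freedom). Tests were two-sided, with Benjamini-Hochberg adjustment over all genes. The scripts were tested on simulated data. The number of arrays limits the precision.

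The genes and lists were chosen with earlier results of these data known. The text names the 10 genes, for each tested one the 2 genes most alike over the 8 lines, imprinted genes that passed, and up to 3 genes of each other list with the smallest p against SWT. The neighbours *Ppp1r9a*, *Pon3*, *Cd81*, *Nap1l4* and *Slc22a18*, and *Usp29*, *Irs2* and *Igf1r*, were added for their position or role after their values were seen. *Mest* and *Slc38a4* were added for their order of clones, also after their values were seen. Alternatives covered the deposited log2 values, another offset, a median shift, detection filters, the choice of probe, robust variance, line and replicate blocks, and the lines or arrays fitted. Array leave-one-out was chosen after seeing the data.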

Additional observations from a re-analysis of the deposited data

Results flagged for a closer look

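One result was set apart by a single array. The reading of 1 of the 3 *Plagl1* probes on array 2 of S98/102 clone 1 was 4.44, the highest of the 6 S98/102 arrays, and its gap to the next array was 0.682 of the range of the group. The probe was not detected on that array or on any other. Of 30 combinations of probe and group checked, 1 was set apart, and chance sets apart about 1 in 20.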

How the results depend on the processing

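Of the 7 genes, the number passing between S98/102 and SWT was 2, and it was 4 with arrays and the line as a random block, both without and with a replicate block, where *Peg3* and *Cdkn1c* also passed. For S113 against SWT it was 0, against 3 with the line block, 1 with the replicate block added and 1 with only the groups compared. Between S98/102 and S113 it was 0, against 1 with the line block and 1 with the replicate block added, and for TSS against SWT likewise 0, against 1 and 1. Of the 41 imprinted genes, the line block gave 19 and the replicate block 18 for S98/102 against SWT (11 otherwise), 6 and 4 for S113 against SWT (0), 8 and 8 for S98/102 against S113 (4), and 1 and 1 for TSS against SWT (0). With only the groups compared, 1 imprinted gene passed in S113 against SWT and 1 in S98/102 against S113, where the deposited log2 values gave 2, no detection filter 2, and S98/102 clones 1 and 4 averaged 1. Within SWT, 1 gene passed in place of 2 with only the arrays of that group. The replicate block changed none of the counts between clones (4, 7, 5, 4 and 2). Replicate numbers did not pair the arrays: over 28 pairs of lines the correlation of array deviations was -0.19 to 0.22 (median 0.00), and 4 were over 0.1. The cause of these changes was not tested.

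Some differences near 0 changed sign under the median shift: *Grb10* in S98/102 against SWT (0.031), *Cdkn1c* in S98/102 against S113 (0.017) and *Peg10* in S98/102 clone 2 against clone 1 (-0.038). *Peg10* in S98/102 against SWT kept its call in all alternatives, from 1.26 with an offset of 50 to 3.75 in the deposited log2 values.

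With 1 line left out, 1 to 3 of the 7 genes passed in S98/102 against SWT, 0 to 1 in S113 against SWT, 0 to 1 in S98/102 against S113 and 0 to 0 in TSS against SWT. The imprinted counts were 3 to 17, 0 to 4, 0 to 9 and 0 to 0 in the same comparisons. With 1 array left out, 4 to 4 passed for S98/102 clone 2 against 1, 7 to 7 for clone 2 against 4, 5 to 5 for clone 4 against 1, 3 to 4 in S113 and 1 to 2 in SWT. A sign changed within these ranges for *Phlda2* (-0.34 to 1.45 in S98/102 against SWT, -1.18 to 0.62 in S98/102 against S113, -0.29 to 1.05 in TSS against SWT), *Grb10* (-0.16 to 0.28 in S113 against SWT), *Cdkn1c* (-0.70 to 0.63) and *Ascl2* (-0.20 to 0.55) in S98/102 against S113, *Peg10* (-0.059 to 0.19 in S98/102 clone 2 against 1, -0.18 to 0.058 in S113), *Igf2* (-0.016 to 0.054 in S98/102 clone 4 against 1, -0.16 to 0.076 in SWT), and *Peg3* (-0.39 to 0.0037) and *Ascl2* (-0.40 to 0.093) in SWT. None of these sign changes touched a difference that passed. Of the single-gene values recomputed, 983 kept direction and side of the threshold, 18 passed newly, 11 no longer passed and 22 changed sign.

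*Peg10* in SWT, *Ascl2* in most lines and *Plagl1* in all lines were at the detection floor, which limits their differences. Each group held 1 to 3 lines, each a single clone.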
